A study of Mus musculus with 2 samples.

Results

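The 10 genes described here carry the insulin and insulin-like growth factor 1 (IGF-1) signal in muscle, and they are 10 of the 55536 annotated genes measured in the series. They were taken by name: Igf1, the growth factor itself, Igfbp5, a secreted protein that binds it, the receptors Igf1r and Insr, the adaptors Irs1 and Irs2, the kinases Akt1 and Akt2, and the Akt substrates Tbc1d1 and Tbc1d4. All 10 were found in the gene table and in both transcript tables of both libraries. The series holds total RNA sequencing of the gastrocnemius, the large muscle of the calf, in 1 group of 2 libraries, named replicate 2 and replicate 1 in the labels. Both come from male B6CASTF1/J mice, first-generation hybrids of C57BL/6J and CAST/EiJ, aged 18 to 20 months, and 300 ng of RNA went into each, with a set of synthetic RNAs (ERCC spike-ins) added. The labels list no treatment. They call the animals Male 04 (replicate 2) and Male 03 (replicate 1) but cite 1 donor record for both, so the spread between the libraries may be between animals or technical. With 1 group there was no condition to compare, and each comparison below sets the 2 libraries or the 2 deposited quantifications of the same reads side by side.

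Insulin and IGF-1 bind related receptor tyrosine kinases at the cell surface. The activated receptors phosphorylate the insulin receptor substrates, which recruit phosphatidylinositol 3-kinase (PI3-kinase), and its lipid product brings the kinase Akt to the membrane. In muscle, Akt drives protein synthesis, restrains the FoxO transcription factors and phosphorylates the Rab GTPase-activating proteins TBC1D1 and TBC1D4, after which vesicles with the glucose transporter GLUT4 move to the cell surface. IGF-1 is made in the liver for the circulation and in muscle for local use.

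Several of these genes give more than 1 protein, and the sequences that set the forms apart are shown here because the transcript results turn on them. They were read from the GENCODE M21 transcripts (mm10) on the strand of the gene. Igf1 transcripts start with either of 2 leader exons. The class 1 leader holds 63 coding bases (chr10:87859350-87859412, plus strand) and the class 2 leader 15 (chr10:87861371-87861385, plus strand). Capitals mark the coding bases of the leader exon, and the lower-case bases are the start of the next exon, which the classes share.
Igf1 class 1 leader: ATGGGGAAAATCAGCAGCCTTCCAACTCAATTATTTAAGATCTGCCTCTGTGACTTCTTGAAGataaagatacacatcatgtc
Igf1 class 2 leader: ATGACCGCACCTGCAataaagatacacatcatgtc

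At the other end, Igf1 either skips or keeps exon 5, a coding exon of 52 nt (chr10:87915298-87915349, plus strand). Its length leaves a remainder of 1 on division by 3, so keeping it shifts the reading frame of exon 6, of which 57 bases are coding in the Ea form and 23 in the Eb form. The Eb form of rodents is also known as mechano growth factor. Capitals mark exon 5 between the end of exon 4 and the start of exon 6.
Igf1 Eb tail: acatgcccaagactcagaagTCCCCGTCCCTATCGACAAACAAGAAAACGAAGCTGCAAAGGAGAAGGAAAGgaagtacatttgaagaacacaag
Igf1 Ea tail: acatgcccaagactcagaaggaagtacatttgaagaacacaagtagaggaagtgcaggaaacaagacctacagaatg

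Insr keeps or skips exon 11, a coding exon of 36 nt (chr8:3181702-3181737, minus strand). The receptor without it binds IGF-2 more tightly, and the receptor with it is the usual form in liver. Capitals mark exon 11 between the flanking exons.
Insr with exon 11: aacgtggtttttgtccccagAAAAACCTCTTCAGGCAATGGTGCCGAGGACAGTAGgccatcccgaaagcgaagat
Insr without exon 11: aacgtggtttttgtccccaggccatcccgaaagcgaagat

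The long forms of Tbc1d1 and Tbc1d4, described in skeletal muscle and heart, each keep 2 coding exons that the short forms lack. Those of Tbc1d1 measure 159 and 120 nt (chr5:64283967-64284125 and chr5:64284690-64284809, plus strand), and those of Tbc1d4 measure 165 and 24 nt (chr14:101475077-101475241 and chr14:101471428-101471451, minus strand). The summed lengths, 279 and 189 nt, are multiples of 3, so the reading frame goes on after them. Capitals mark the inserted exons.
Tbc1d1 long-form insert: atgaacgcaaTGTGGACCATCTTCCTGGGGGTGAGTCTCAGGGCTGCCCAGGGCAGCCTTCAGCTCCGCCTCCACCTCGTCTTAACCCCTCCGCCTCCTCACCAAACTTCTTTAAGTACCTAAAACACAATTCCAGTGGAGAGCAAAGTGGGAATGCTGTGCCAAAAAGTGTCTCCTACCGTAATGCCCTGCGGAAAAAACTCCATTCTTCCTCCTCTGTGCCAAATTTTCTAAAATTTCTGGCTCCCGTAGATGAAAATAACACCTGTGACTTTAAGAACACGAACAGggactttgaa
Tbc1d4 long-form insert: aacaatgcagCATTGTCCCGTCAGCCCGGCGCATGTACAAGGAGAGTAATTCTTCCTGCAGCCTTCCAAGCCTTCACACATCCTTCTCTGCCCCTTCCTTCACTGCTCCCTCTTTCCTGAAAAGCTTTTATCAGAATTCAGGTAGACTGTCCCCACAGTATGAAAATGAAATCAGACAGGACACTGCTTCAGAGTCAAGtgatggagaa

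The libraries held 44706541 expected counts over genes in replicate 2 and 40576841 in replicate 1, where an expected count is a number of reads after reads that fit several entries have been shared out. ERCC spike-ins took 0.474% of counts in replicate 2 and 0.537% in replicate 1. Markers of skeletal muscle fibres (Acta1, Ckm, Mylpf, Tnnt3, Ttn and Neb) summed to 63930 TPM (transcript abundance per length, scaled to a fixed total) in replicate 2 and 80760 TPM in replicate 1, so both libraries carry the RNA of muscle. The 8 markers of oxidative or slow fibres (Myh7, Myh2, Tnni1, Tnnt1, Myl2, Myl3, Atp2a2 and Tnnc1) had log2 ratios of replicate 2 to replicate 1 between 1.90 and 3.85, with summed levels of 3203 TPM in replicate 2 and 470.5 TPM in replicate 1. The 4 markers of fast IIb fibres summed to 21700 TPM in replicate 2 and 32010 TPM in replicate 1, with log2 ratios between -0.69 and -0.53. RNA of markers listed for other cell types the tissue could hold was also found. In replicate 2 their markers summed to 57.2 TPM for endothelium, 241 TPM for fibroblasts, 135 TPM for smooth muscle and pericytes, 19.9 TPM for macrophages, 130 TPM for adipocytes, 28.7 TPM for Schwann cells, 95.2 TPM for tendon and 35.7 TPM for satellite cells. In replicate 1 they summed to 38.7 TPM for endothelium, 247 TPM for fibroblasts, 98.0 TPM for smooth muscle and pericytes, 18.7 TPM for macrophages, 94.2 TPM for adipocytes, 20.0 TPM for Schwann cells, 66.3 TPM for tendon and 28.1 TPM for satellite cells. No marker on any of these lists was at 0 in both libraries. Some sums rested mainly on 1 gene. Sdc4 gave 32.59 TPM of the satellite cell sum in replicate 2 and 25.74 TPM in replicate 1. Only 1 of the 5 satellite cell markers was at 1 TPM or more in both libraries. Fabp4 gave 94.97 TPM of the adipocyte sum in replicate 2 and 72.84 TPM in replicate 1. Such sums do not by themselves show that the cell type was present. The part of fibre type and of these other cells in the differences below was not tested, and in bulk RNA fewer cells of a type and less RNA per cell cannot be told apart.

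All 10 genes were detected at 1 TPM or more in both libraries, and 8 of them at 5 TPM or more in both. Igf1r was below 5 TPM in both libraries and Igf1 in replicate 2 only. Igfbp5 stood first in mean level with 141 ± 58.8 TPM (SD, n = 2), and Akt2 came next with 75.6 ± 0.60 TPM. Then came Insr (22.8 ± 1.32 TPM), Irs2 (20.5 ± 14.6 TPM), Tbc1d4 (19.6 ± 0.134 TPM), Akt1 (18.2 ± 3.71 TPM), Tbc1d1 (18.0 ± 8.63 TPM) and Irs1 (17.8 ± 2.12 TPM). Igf1 at 4.82 ± 1.22 TPM and Igf1r at 2.66 ± 0.375 TPM were lowest. The ranges of the 2 libraries overlapped between each pair of neighbours from Insr down to Irs1. Among genes further apart in those 6, both values of Insr lay above both values of Tbc1d4, Akt1 and Irs1, and both values of Tbc1d4 lay above those of Irs1. The ranges did not overlap between Igfbp5 and Akt2, between Akt2 and Insr, between Irs1 and Igf1, or between Igf1 and Igf1r. Against the 10063 nuclear protein-coding genes detected at 1 TPM or more in both libraries, Igfbp5 lay above 96.3% of them by mean level, Akt2 above 93.2%, and Igf1r above 17.9%.

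The files hold more than one quantification of the same reads. The alignment-based tables were derived from a transcriptome alignment and are the source of each value that is not named otherwise, and the read-based table was derived directly from the reads. In the read-based table, Igfbp5 (188 ± 85.8 TPM) and Akt2 (93.3 ± 1.17 TPM) again stood first and Igf1 (8.19 ± 2.70 TPM) and Igf1r (3.65 ± 0.248 TPM) last (SD, n = 2). Between them came Akt1 (29.3 ± 5.44 TPM), Insr (26.5 ± 1.10 TPM), Tbc1d4 (25.96 ± 2.89 TPM), Irs2 (25.2 ± 17.1 TPM), Tbc1d1 (23.9 ± 11.7 TPM) and Irs1 (22.5 ± 3.69 TPM), in an order that differed from the alignment-based one.

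**Figure D1:**
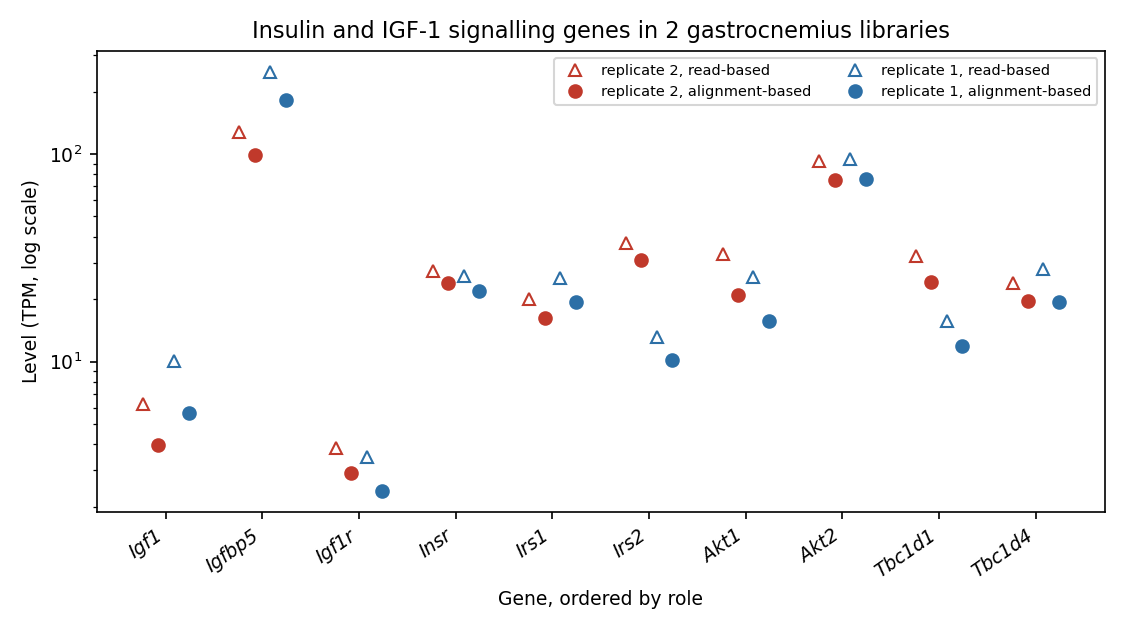
Level of each of the 10 genes (TPM, log axis) in replicate 2 (red) and replicate 1 (blue), from the alignment-based (filled circles) and read-based (open triangles) quantification. Igfbp5 is lower and Irs2 and Tbc1d1 are higher in replicate 2 than in replicate 1 in both quantifications, while the Akt2 points of the 2 libraries lie side by side.

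Each gene was then compared between the libraries by a 2-sided exact binomial test on counts scaled by TMM, a factor that equalises the bulk of genes, with p-values adjusted over all 14965 tested genes by the Benjamini-Hochberg method. A gene was called at an adjusted p below 0.05 and a difference of at least 2-fold. This test holds counting error only, so it describes these 2 libraries and no condition. It called 1 of the 10 genes, Irs2, against 6.05% of all tested genes (4.4% higher in replicate 2 and 1.65% higher in replicate 1). The scaled log2 ratio of replicate 2 to replicate 1 was above 0 for 5 genes and below 0 for 5, with a median of 0.09 beside 0.005 over all tested genes. All 10 adjusted p-values were below 0.05 without the 2-fold rule, as were those of 5221 tested genes (34.9%), so at these counts small differences between the libraries pass the counting test. Scaling by the ERCC spike-ins instead raised every log2 ratio by 0.22. The sign then differed for Akt2 and Tbc1d4, and Tbc1d1 passed the 2-fold line.

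**Figure D2:**
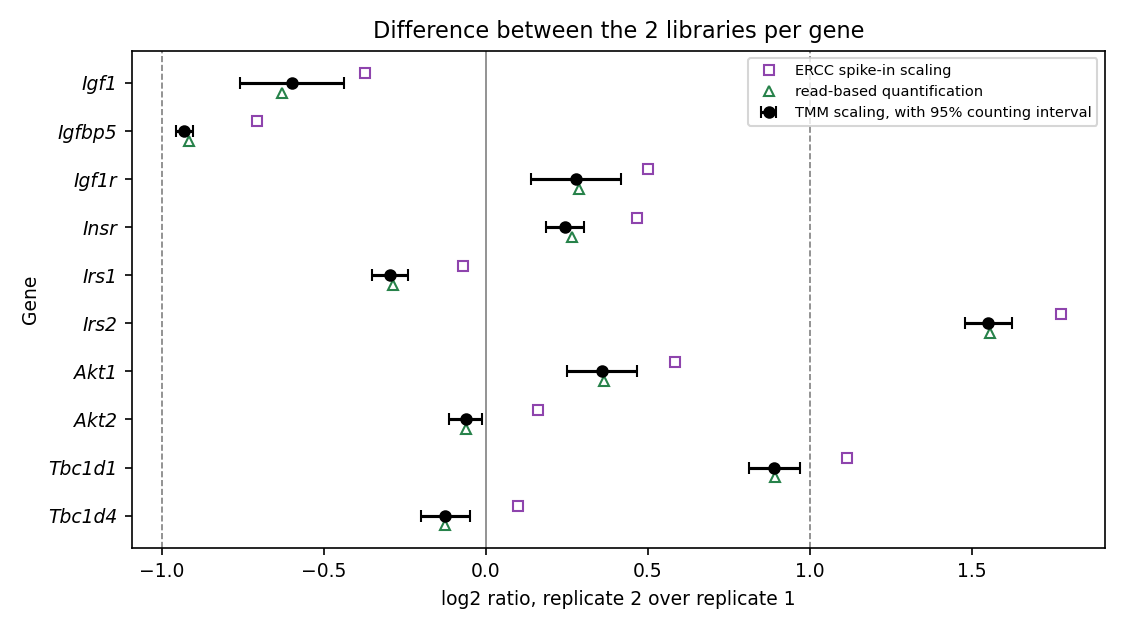
Log2 ratio of replicate 2 to replicate 1 for each gene, with 95% counting intervals under TMM scaling (black), the read-based value (green triangles) and the value under ERCC scaling (purple squares); dashed lines mark 2-fold. Irs2 lies beyond 2-fold at 1.55, Tbc1d1 at 0.89 and Igfbp5 at -0.93 lie within it, and Akt2 lies nearest to 0 under TMM scaling.

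Igf1 (ENSMUSG00000020053.18, chr10:87858265-87937042, plus strand), the ligand, had 3.95 TPM in replicate 2 and 5.68 TPM in replicate 1, from 555 counts in replicate 2 and 740 counts in replicate 1. The scaled ratio of replicate 2 to replicate 1 was 0.66 (exact 95% interval 0.591 to 0.738), or 1.51-fold higher in replicate 1. A difference at least this large was seen in 16.7% of tested genes. Igfbp5 (ENSMUSG00000026185.8, chr1:72857932-72874884, minus strand), which holds IGFs in the tissue and can limit or prolong their action, had 99.2 TPM in replicate 2 and 182 TPM in replicate 1, from 20238 counts in replicate 2 and 33989 counts in replicate 1. It was 1.91-fold higher in replicate 1 (95% interval 1.87 to 1.94), just inside the 2-fold line, and 8.41% of tested genes differed by at least as much. Both genes were thus lower in replicate 2, and neither was called.

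Igfbp5 was the most abundant of the 7 IGF-binding protein genes Igfbp1 to Igfbp7. It made up 55.7% of their summed TPM in replicate 2 and 73.7% in replicate 1, out of totals of 178 TPM in replicate 2 and 247 TPM in replicate 1. Igfbp7, the next in level, had 32.0 TPM in replicate 2 and 30.8 TPM in replicate 1. The level of Igfbp5 was 25.1 times that of Igf1 in replicate 2 and 32.1 times in replicate 1. In the list of 15 ligands and binding proteins, Ins1 and Ins2, the insulin genes, and Igfbp1 had a count of 0 in both libraries, which allows up to 3 counts in each.

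Insr (ENSMUSG00000005534.10, chr8:3122061-3279617, minus strand), the insulin receptor, had 23.8 TPM in replicate 2 and 21.9 TPM in replicate 1. Igf1r (ENSMUSG00000005533.10, chr7:67952827-68233668, plus strand), the IGF-1 receptor, had 2.92 TPM in replicate 2 and 2.39 TPM in replicate 1. Insr was therefore the more abundant receptor transcript, at 8.14 times the level of Igf1r in replicate 2 and 9.17 times in replicate 1. The scaled count ratios of replicate 2 to replicate 1 were 1.18 for Insr (95% interval 1.14 to 1.23, from 5498 counts in replicate 2 and 4089 counts in replicate 1) and 1.21 for Igf1r (1.10 to 1.34, from 1019 counts in replicate 2 and 740 counts in replicate 1). Differences of that size were common, with 44.4% of tested genes moving at least as far as Insr and 39.8% as far as Igf1r. Of the other receptors listed, Ghr, the growth hormone receptor, stood highest at 77.2 TPM in replicate 2 and 92.0 TPM in replicate 1.

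The adaptors Irs1 and Irs2, which dock on the activated receptors, differed in opposite directions. Irs2 (ENSMUSG00000038894.7, chr8:10984681-11008458, minus strand) had 30.8 TPM in replicate 2 and 10.2 TPM in replicate 1, from 6635 counts in replicate 2 and 1995 counts in replicate 1. It was 2.93-fold higher in replicate 2 (95% interval 2.79 to 3.08), and 2.97% of tested genes differed by at least as much. Irs1 (ENSMUSG00000055980.2, chr1:82233101-82291416, minus strand) had 16.3 TPM in replicate 2 and 19.3 TPM in replicate 1, a scaled ratio of 0.815 (0.784 to 0.847) that did not reach the 2-fold line. The order of the pair therefore changed between the libraries, with an Irs2 to Irs1 ratio of TPM of 1.90 in replicate 2 and 0.527 in replicate 1. The read-based quantification gave the same ratio as 1.88 in replicate 2 and 0.522 in replicate 1. The summed level of both adaptors was 47.1 TPM in replicate 2 and 29.4 TPM in replicate 1. Each of the pair has 1 annotated transcript, so no sharing of reads between forms enters these values. Exons of an annotated gene on the opposite strand, Gm9747, cover 30.9% of the exon bases of Irs1, and it was listed at 0 TPM in both libraries. For Irs2 an opposite-strand gene, 9530052E02Rik, covers 2.56%, at 0.05 TPM in replicate 2 and 0 TPM in replicate 1. No other of the 10 genes shares exon bases with another gene.

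Because Irs2 was the 1 gene called and Irs1 its counterpart, their promoter windows are shown. Each holds 300 bases, from 250 before to 50 after the RefSeq start, on the strand of the gene (RefSeq, GRCm38.p6; Irs1 chr1:82291390-82291689 and Irs2 chr8:11008880-11009179, both minus strand). The RefSeq start of Irs2 lies upstream of the GENCODE gene given above. Capitals mark CACGTG, the E-box bound by basic helix-loop-helix factors, which reads the same on both strands. They also mark TGTTTTG, the core of the insulin response element that FoxO proteins recognise. On the other strand this core reads CAAAACA.
Irs1 promoter: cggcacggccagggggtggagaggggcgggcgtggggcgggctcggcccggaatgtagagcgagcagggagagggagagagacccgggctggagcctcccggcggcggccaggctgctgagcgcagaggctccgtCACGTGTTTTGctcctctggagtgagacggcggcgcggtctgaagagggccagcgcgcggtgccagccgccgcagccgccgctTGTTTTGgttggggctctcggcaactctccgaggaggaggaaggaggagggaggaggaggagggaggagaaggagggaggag
Irs2 promoter: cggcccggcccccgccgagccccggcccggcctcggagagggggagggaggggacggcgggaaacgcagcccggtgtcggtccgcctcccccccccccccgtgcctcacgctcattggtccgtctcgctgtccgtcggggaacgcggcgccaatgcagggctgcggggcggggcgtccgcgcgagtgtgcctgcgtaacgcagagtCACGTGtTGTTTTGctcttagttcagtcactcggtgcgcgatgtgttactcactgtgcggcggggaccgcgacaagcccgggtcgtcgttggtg
Counted from the first base shown, Irs1 has the E-box at bases 136 to 141 and the core at 140 to 146, which overlap, and again at 219 to 225. In Irs2 the E-box stands at 207 to 212 and the core at 214 to 220. On either strand, CACGTG occurs in 7.15% of the 32851 RefSeq promoter windows of mouse, TGTTTTG in 6.28%, and both in 0.408%. Of the 14 windows of the 9 genes that matched, Insr not among them, only those of Irs1 and Irs2 hold either motif. The only Igf1 window (chr10:87860861-87861160) lies downstream of the class 1 leader, so the bases before that leader were not searched. The motifs were chosen after the sequences were seen, and a match is a description and not a binding site.

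Akt2 (ENSMUSG00000004056.15, chr7:27591552-27640826, plus strand), the Akt kinase most tied to insulin-stimulated glucose uptake, had 75.1 TPM in replicate 2 and 76.0 TPM in replicate 1. Its scaled ratio of 0.957 (95% interval 0.924 to 0.992) was the nearest to 1 of the 10 genes under TMM scaling, and 81.9% of tested genes differed by at least as much. Akt1 (ENSMUSG00000001729.14, chr12:112653821-112674884, minus strand), the form more tied to growth, had 20.9 TPM in replicate 2 and 15.6 TPM in replicate 1, a ratio of 1.28 (1.19 to 1.38). The TPM of Akt2 was 3.60 times that of Akt1 in replicate 2 and 4.87 times in replicate 1. The read-based values were 2.79 in replicate 2 and 3.70 in replicate 1.

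Tbc1d1 (ENSMUSG00000029174.18, chr5:64156305-64351486, plus strand) and Tbc1d4 (ENSMUSG00000033083.16, chr14:101442360-101609191, minus strand), also called AS160, hold GLUT4 vesicles back until they are phosphorylated. In mouse, TBC1D1 protein is known to be more abundant in fast glycolytic muscles and TBC1D4 in the oxidative soleus. Tbc1d1 had 24.1 TPM in replicate 2 and 11.9 TPM in replicate 1, from 4020 counts in replicate 2 and 1910 counts in replicate 1. Its scaled count ratio was 1.85 (95% interval 1.75 to 1.96), and 9.16% of tested genes differed by at least as much. The TPM of the same gene differed 2.02-fold. TPM also divides by an effective length that depends on which transcripts the reads were given to, and it is scaled to a total over all entries. Tbc1d4 had 19.7 TPM in replicate 2 and 19.5 TPM in replicate 1, a TPM ratio of 1.01, while its scaled count ratio was 0.917 (0.870 to 0.966), so the direction of its small difference depended on the unit. In the read-based table it had 23.9 TPM in replicate 2 and 28.0 TPM in replicate 1. The TPM of Tbc1d1 was 1.23 times that of Tbc1d4 in replicate 2 and 0.613 times in replicate 1, so this pair also changed order. The read-based ratios were 1.34 in replicate 2 and 0.558 in replicate 1. Tbc1d1, like Irs2, was higher in the library with the higher level of oxidative and slow fibre markers (3203 TPM in replicate 2 and 470.5 TPM in replicate 1), and the part of fibre type in this was not tested.

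**Figure D3:**
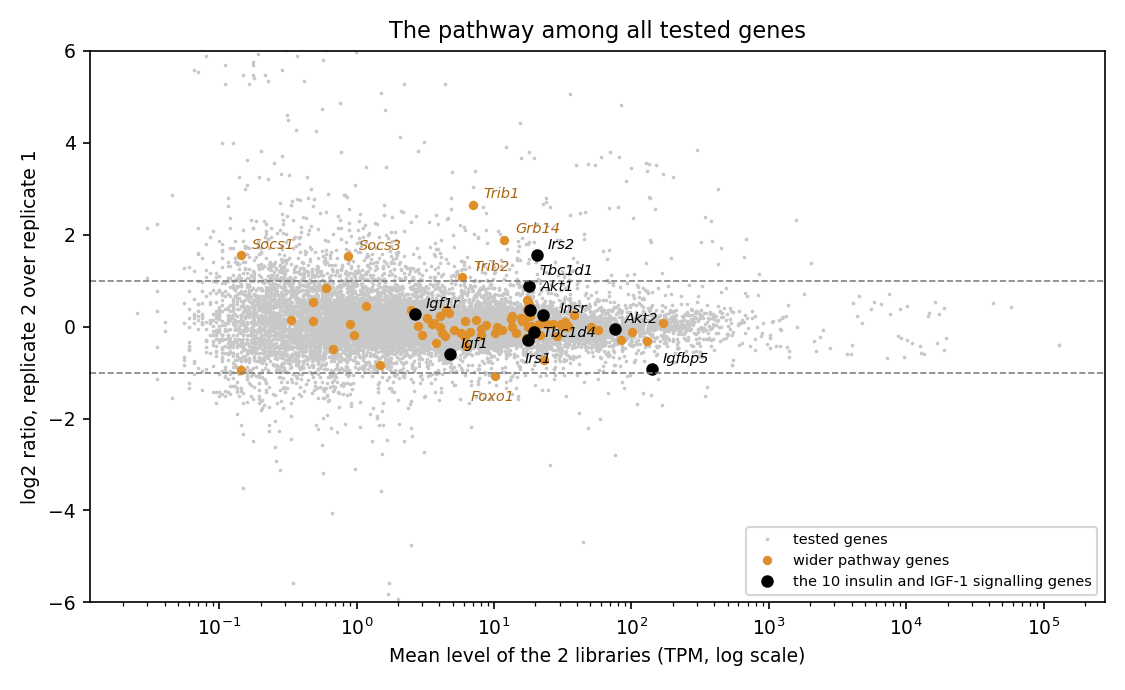
Log2 ratio of replicate 2 to replicate 1 against mean level (TPM, log axis) for all tested genes (grey), the wider pathway lists (orange) and the 10 genes (black), with dashed lines at 2-fold; 34 tested genes beyond a log2 ratio of 6 in either direction are outside the frame. Under TMM scaling, only Irs2 of the 10 genes lies beyond the 2-fold lines, and Igfbp5 and Tbc1d1 lie just within them.

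The transcript tables split each gene into its annotated forms, and the 2 quantifications often split the same reads differently. No test was made on the shares. Gene levels themselves were higher in the read-based quantification, by 1.16 times for Insr up to 1.70 times for Igf1 in mean TPM. The log2 ratios between the libraries nearly coincided, as with Irs2 at 1.56 read-based and 1.55 alignment-based. The read-based counts also called 1 of the 10 genes, again Irs2, against 5.95% of the genes tested there (4.06% higher in replicate 2 and 1.9% higher in replicate 1).

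For Igf1, the class 1 leader held 49.5% of the gene's TPM in replicate 2 and 43.1% in replicate 1 in the read-based table, and 88.4% in replicate 2 and 77.3% in replicate 1 in the alignment-based table. Forms with exon 5 held 17.6% in replicate 2 and 43.3% in replicate 1 in the read-based table, and 41.8% in replicate 2 and 48.9% in replicate 1 in the alignment-based table. The main class 1 Ea transcript, Igf1-202, had 2.46 TPM in replicate 2 and 4.04 TPM in replicate 1 read-based, and 1.89 TPM in replicate 2 and 2.89 TPM in replicate 1 alignment-based. The quantifications also differed on other Igf1 forms. Igf1-206, which keeps exon 5, was listed at 0.19 TPM in replicate 2 and 3.75 TPM in replicate 1 read-based, and at 0 TPM in replicate 2 and 1.12 TPM in replicate 1 alignment-based. Igf1-205, which lacks it, was listed at 2.64 TPM in replicate 2 and 1.69 TPM in replicate 1 read-based, and at 0.41 TPM in replicate 2 and 0 TPM in replicate 1 alignment-based. The alignment-based counts behind Igf1-206 were 0 in replicate 2 and 19.5 in replicate 1, with deposited posterior standard deviations of 5.23 counts in replicate 2 and 8.64 counts in replicate 1. Igf1-203, the class 1 form with exon 5, held 10.4% of the gene in replicate 2 and 3.12% in replicate 1 read-based, and 40.6% in replicate 2 and 26.4% in replicate 1 alignment-based. It rested on 27.2 counts in replicate 2 and 11.3 counts in replicate 1 read-based. Alignment-based it had 87.2 counts in replicate 2 and 74.5 counts in replicate 1, with posterior standard deviations of 12.7 counts in replicate 2 and 15.0 counts in replicate 1. Neither the leader share nor the exon 5 share is therefore settled by these tables.

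For Insr, the full-length coding transcript Insr-201 held 67.1% of the gene's TPM in replicate 2 and 57.7% in replicate 1 alignment-based, and 74.4% in replicate 2 and 66.7% in replicate 1 read-based. It lacks exon 11. The retained-intron transcript Insr-202 held 20.6% in replicate 2 and 25.7% in replicate 1 alignment-based, and 7.93% in replicate 2 and 14.4% in replicate 1 read-based. Exon 11 is annotated only in Insr-203, a coding fragment of 672 nt (the exon 11 fragment), and within the retained-intron transcript Insr-204. Insr-203 held 12.9% of the TPM of both coding transcripts in replicate 2 and 20.1% in replicate 1 alignment-based, and 16.5% in replicate 2 and 19.9% in replicate 1 read-based. Since Insr-203 is a fragment, these shares do not give the proportion of receptor transcripts that keep the exon.

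For Tbc1d1, the long form Tbc1d1-201 was the main coding transcript in both libraries and both tables. It held 90.2% of the TPM of the 4 compared coding transcripts in replicate 2 and 86.6% in replicate 1 alignment-based, and 68.3% in replicate 2 and 78.2% in replicate 1 read-based. In TPM it stood at 14.4 in replicate 2 and 7.74 in replicate 1 alignment-based, and at 15.9 in replicate 2 and 10.02 in replicate 1 read-based, so the long form was higher in replicate 2 as the gene was. Part of the gene's level lay outside the coding forms. Tbc1d1-207, a transcript annotated for nonsense-mediated decay, had 6.50 TPM in replicate 2 and 0.867 TPM in replicate 1 read-based, and 2.19 TPM in replicate 2 and 0 TPM in replicate 1 alignment-based. Tbc1d1-206, a noncoding one, had 4.71 TPM in replicate 2 and 1.25 TPM in replicate 1 alignment-based and 0 TPM in both libraries read-based. Tbc1d1-205, with a retained intron, had 2.31 TPM in replicate 2 and 1.95 TPM in replicate 1 read-based, and 1.21 TPM in replicate 2 and 1.72 TPM in replicate 1 alignment-based. The tables also differed on the short coding forms. Tbc1d1-204 had 6.06 TPM in replicate 2 and 2.10 TPM in replicate 1 read-based, and 0.57 TPM in replicate 2 and 0 TPM in replicate 1 alignment-based. Tbc1d1-203 had 0.852 TPM in replicate 2 and 0.146 TPM in replicate 1 read-based, and 0.99 TPM in replicate 2 and 1.20 TPM in replicate 1 alignment-based.

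For Tbc1d4, the long forms Tbc1d4-201 and Tbc1d4-210 were set against the summed TPM of the 4 compared coding transcripts. Together they held 68.2% of it in replicate 2 and 55.1% in replicate 1 alignment-based. Read-based, they held 56.1% in replicate 2 and 52.5% in replicate 1. Tbc1d4-201 is annotated with 2518 coding bases and Tbc1d4-210 with 3918. These shares therefore rest partly on a shorter entry and do not give the proportion of full-length transcripts that keep the exons. Tbc1d4-209, a short form with 3729 coding bases, had 7.59 TPM in replicate 2 and 7.66 TPM in replicate 1 read-based. Alignment-based it had 4.17 TPM in replicate 2 and 6.13 TPM in replicate 1. The long Tbc1d4-210 was lower in each case. It had 4.87 TPM in replicate 2 and 4.01 TPM in replicate 1 read-based, and 3.60 TPM and 2.92 TPM alignment-based. A retained-intron transcript, Tbc1d4-208, held 20.4% of the whole gene's TPM in replicate 2 and 18.8% in replicate 1 read-based, and 32.97% in replicate 2 and 29.1% in replicate 1 alignment-based.

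Akt2 showed the clearest exchange between the quantifications. The alignment-based table gave Akt2-201 61.7% of the gene's TPM in replicate 2 and 62.2% in replicate 1, and gave Akt2-204 0% in replicate 2 and 0.54% in replicate 1. The read-based table made Akt2-204 the leading transcript, at 45.3 TPM in replicate 2 and 47.3 TPM in replicate 1, above Akt2-201 at 23.7 TPM in replicate 2 and 27.6 TPM in replicate 1. Both carry 1443 coding bases, as does Akt2-214, which held 11.9% of the gene in replicate 2 and 10.2% in replicate 1 alignment-based and was listed at 0 read-based. The shorter Akt2-206 held 15.3% in replicate 2 and 17.4% in replicate 1 alignment-based and was also listed at 0 read-based. Akt2-207 held 17.8% in replicate 2 and 11.6% in replicate 1 read-based, and 1.30% in replicate 2 and 0% in replicate 1 alignment-based. Within a table the shares of Akt2-201 lay close in both libraries, and the difference lay between the quantifications. Akt1-201 held 88.0% of Akt1 in replicate 2 and 88.9% in replicate 1 alignment-based, and 68.3% in replicate 2 and 71.3% in replicate 1 read-based, the rest of the read-based level going mainly to Akt1-208 (25.9% in replicate 2 and 23.2% in replicate 1), which was listed at 0 alignment-based. Igf1r-201 held 82.1% of Igf1r in replicate 2 and 76.1% in replicate 1 read-based, and 87.4% in replicate 2 and 84.0% in replicate 1 alignment-based. Igf1r-206, with a retained intron, held 10.3% in replicate 2 and 13.9% in replicate 1 read-based, and 3.66% in replicate 2 and 0% in replicate 1 alignment-based, on 4.8 counts in replicate 2 and 5.1 counts in replicate 1 in the read-based table. Igfbp5-201 held 98.7% of Igfbp5 in replicate 2 and 98.9% in replicate 1 read-based, and 99.8% in replicate 2 and 99.9% in replicate 1 alignment-based.

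**Figure D4:**
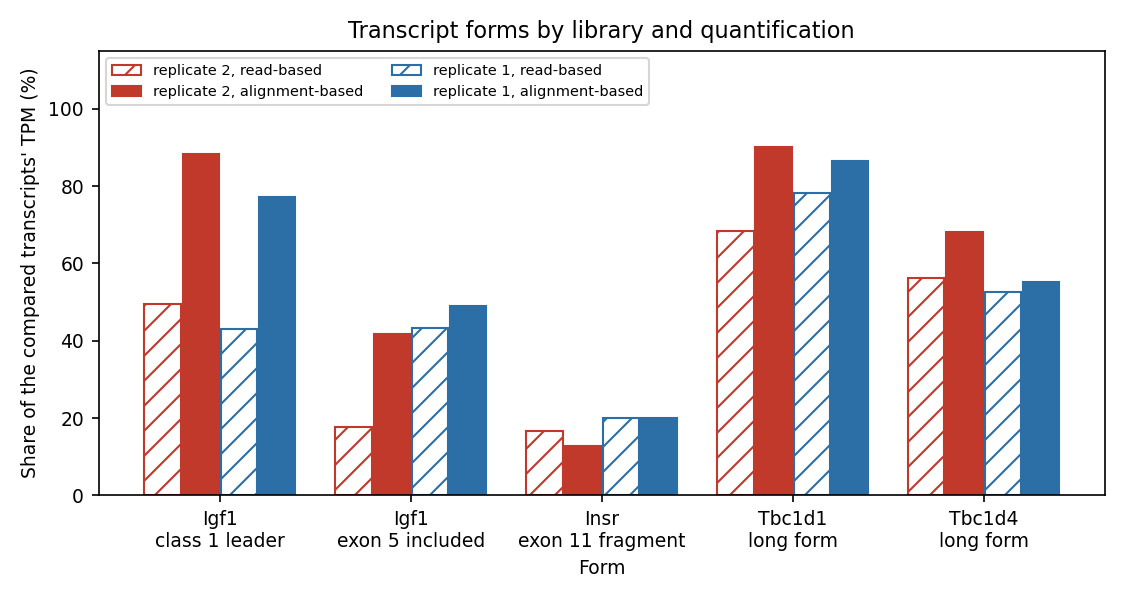
Share of the compared transcripts' TPM (%) held by 5 forms, in replicate 2 (red) and replicate 1 (blue), read-based (hatched) and alignment-based (filled). The Igf1 leader share differs more between the quantifications (49.5% read-based and 88.4% alignment-based in replicate 2) than between the libraries, and the Tbc1d1 long form holds the majority in all 4 bars.

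The wider pathway was described with 8 lists holding 84 further genes, of which 77 had enough counts to test. Of these 6 were called (7.79%, beside 6.05% of all tested genes), 5 higher in replicate 2 and 1 higher in replicate 1. Their median log2 ratio was 0.015. The share called lies near that of all genes. No list was tested as a set. The lists were chosen with earlier results of these data known, so the share called in each list below is a description only. Under ERCC scaling every list median lies 0.22 higher, which puts all 8 above 0.

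Of 14 tested genes of the Akt module, 2 were called, both higher in replicate 2, beside 4.4% of all tested genes called in that direction. Trib1, a pseudokinase of the Tribbles family, had 12.3 TPM in replicate 2 and 1.88 TPM in replicate 1, from 1767 counts in replicate 2 and 247 counts in replicate 1 (6.30-fold, 95% interval 5.51 to 7.23). Trib2, of the same family, had 8.21 TPM in replicate 2 and 3.57 TPM in replicate 1 (2.11-fold, 1.89 to 2.36). The third member, Trib3, known as an inhibitor of Akt, had 0.62 TPM in replicate 2 and 0.35 TPM in replicate 1 and was not called. Mapkap1, the mTORC2 subunit SIN1, was the most abundant after Akt2 in this list, at 31.4 TPM in replicate 2 and 29.7 TPM in replicate 1. The median log2 ratio of the list was 0.21.

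Of 12 tested negative regulators, 3 were called, all higher in replicate 2, beside 4.4% of all tested genes called in that direction. Grb14, which binds the active insulin receptor and blocks its kinase, had 19.6 TPM in replicate 2 and 4.21 TPM in replicate 1, from 805 counts in replicate 2 and 191 counts in replicate 1 (3.71-fold, 95% interval 3.17 to 4.37). Socs3 and Socs1, feedback inhibitors of cytokine receptors that also target the insulin receptor substrates, rested on few reads, with 110 counts in replicate 2 and 33 counts in replicate 1 for Socs3 (2.94-fold, 1.97 to 4.47) and 21 counts in replicate 2 and 6 counts in replicate 1 for Socs1 (3.08-fold, 1.20 to 9.33). Socs1 lost its call when the filter on low counts was dropped. Grb10, the close relative of Grb14, had 11.2 TPM in replicate 2 and 11.8 TPM in replicate 1 and was not called. The median of the list was 0.02, so its called genes stand beside others near or below 0.

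Foxo1, a transcription factor that Akt keeps out of the nucleus and that drives atrophy genes in muscle, was the 1 listed gene called higher in replicate 1. It had 6.75 TPM in replicate 2 and 13.6 TPM in replicate 1, from 1999 counts in replicate 2 and 3688 counts in replicate 1 (2.10-fold higher in replicate 1, 95% interval 1.98 to 2.21), and under ERCC scaling it fell short of 2-fold. Its relatives were not called: Foxo3 had 9.84 TPM in replicate 2 and 10.6 TPM in replicate 1, and Foxo4 had 52.4 TPM in replicate 2 and 49.3 TPM in replicate 1. The most abundant of the 10 tested Akt substrates was Akt1s1, an inhibitor within mTORC1, at 54.7 TPM in replicate 2 and 59.6 TPM in replicate 1. The median of the list was -0.04.

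The other lists gave no call outside the 10 genes. Among 10 tested ligands and binding proteins and 5 tested receptors none was called, with medians of -0.03 and 0.24. Among 9 tested adaptors only Irs2 was called (median -0.12). Grb2, the adaptor to the Ras pathway, had 28.1 TPM in replicate 2 and 29.1 TPM in replicate 1, and Sh2b1, which binds the receptors, had 20.7 TPM in replicate 2 and 22.6 TPM in replicate 1. None of 10 genes of PI3-kinase and the lipid phosphatases was called (median 0.04). Inppl1, the phosphatase SHIP2, had 42.7 TPM in replicate 2 and 33.8 TPM in replicate 1, and Pik3ca, a catalytic subunit, had 19.3 TPM in replicate 2 and 17.0 TPM in replicate 1. None of 17 genes of GLUT4 traffic was called (median 0.05). Slc2a4, which encodes GLUT4, had 179 TPM in replicate 2 and 163 TPM in replicate 1, and Rab10, a GTPase of GLUT4 vesicles, had 118 TPM in replicate 2 and 142 TPM in replicate 1. All 17 of these traffic genes were at 1 TPM or more in both libraries.

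**Figure D5:**
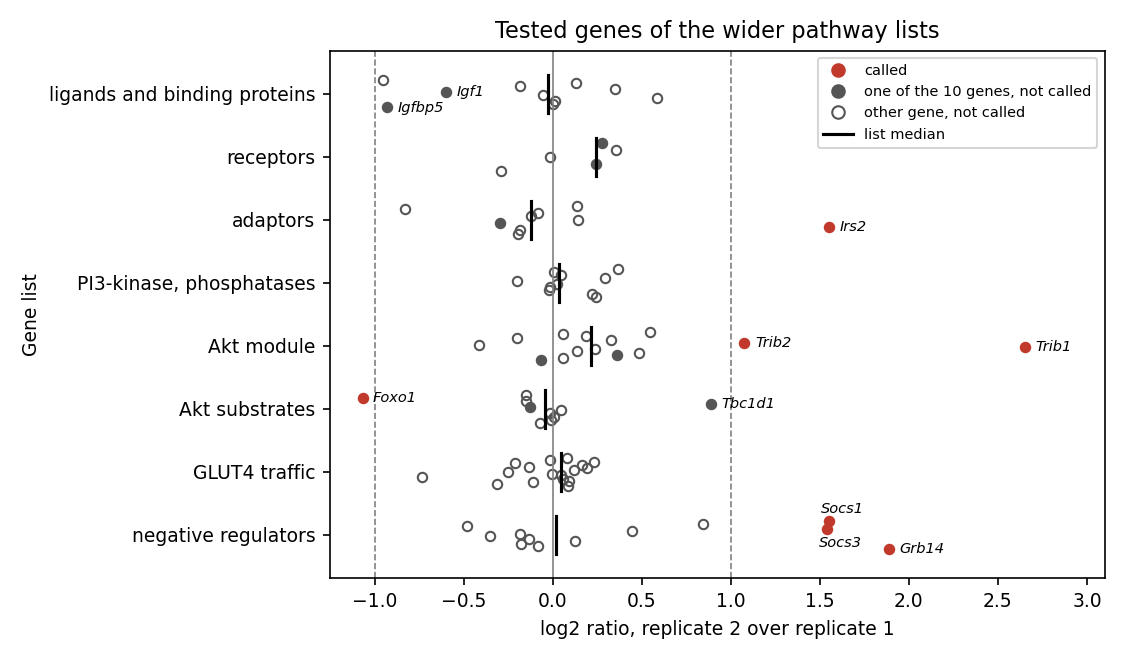
Log2 ratio of replicate 2 to replicate 1 of every tested gene in the 8 wider lists, which include the 10 genes; red points were called, filled grey points are uncalled genes among the 10, open points are other genes, and black bars are list medians. Called genes lie to the right of the 2-fold line for the Akt module, adaptors and negative regulators and to its left for Foxo1, and the list medians lie between -0.12 and 0.24.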

How the data were processed

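Total RNA of 2 gastrocnemius libraries was analysed from the deposited gene table and 2 transcript tables per library. The assembly is mm10 and the annotation M21, per the file list deposited with each sample. The programs behind the tables, not given in the sources used here, cannot be named. The deposited expected counts (gene table and first transcript table, called alignment-based) come from a transcriptome alignment, and the deposited estimated counts (second transcript table, called read-based) directly from the reads, per the file list. The deposited TPM values are counts per effective length scaled to a fixed total over all entries, per the file headers. Isoform use, a deposited percent, tells, per the file headers, how much of a gene's TPM each transcript holds, and the deposited posterior standard deviation of a count describes how surely reads were shared out. Reads of the CAST/EiJ allele were set against mm10, and an effect of this on levels was not tested.

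Expected counts were rounded to whole numbers and compared between the libraries with a 2-sided exact binomial test at TMM library sizes (edgeR 4.0.16, R 4.3.3) over genes whose mean count was 10 or more, with Benjamini-Hochberg adjustment (scipy 1.17.1, numpy 2.4.6, pandas 2.3.3, Python 3.11.15). Fold rules used scaled counts + 0.5, ratios with exact Clopper-Pearson 95% intervals left it out, and both hold counting error only. edgeR's quasi-likelihood test needs replicate libraries within the sides compared. Setting 1 library against 1 library leaves none, so it was not possible. Some values are not reported here. Of the 10 genes, 9 had whole counts and a posterior standard deviation of 0 in both libraries, so their reads were not shared with other genes, and Akt2 had one of 9.55 counts in replicate 2 and 9.78 counts in replicate 1. Read-based transcripts were summed per gene. Named are all 10 genes, each called gene and the 2 genes of highest mean TPM of each wider list, and transcripts with at least 10% of their gene in any library and table; the other named genes, such as relatives of a called gene, were chosen after their values were seen. The 10 genes and all lists were chosen with earlier results of these data known. Alternatives were DESeq2 1.42.0 size factors, ERCC scaling, other filters, a pseudocount of 5, TPM over nuclear protein-coding genes, and the read-based tables.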

Additional observations from a re-analysis of the deposited data

How the results depend on the processing

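The 10 genes kept their direction and their side of the 2-fold rule in 57 of 60 log2 ratios over 6 alternatives (DESeq2 size factors, ERCC scaling, no filter, a mean count of at least 100, a pseudocount of 5, read-based counts). The 3 exceptions all came with ERCC scaling, which adds 0.22 to every log2 ratio by its construction. Akt2 became 0.16 and Tbc1d4 0.10, both reversed in sign, and Tbc1d1 became 1.11, so that 2 of the 10 genes were called in place of 1. Much of the count of 57 was fixed in advance. The filters change which genes are tested and not the ratios, so Igf1 stayed at -0.598 under both. DESeq2 size factors shifted the median log2 ratio by only -0.005, and a pseudocount of 5 moved Igf1 only to -0.594. The read-based counts quantify the reads anew, and there 10 of 10 ratios were kept. The number of all genes called was 906 of 14965 tested, and ERCC scaling raised it to 1197 of the same 14965. It was 367 with a mean count of at least 100, where fewer genes were tested (10305 in place of 14965). In the wider lists, Foxo1 lost and Ptprf gained a call with ERCC scaling, Socs1 lost it without a filter, Socs1 and Socs3 were not tested at a mean count of at least 100, and Pappa was added in the read-based table. With the read-based tables, mean TPM moved by more than the spread of the libraries in 7 of 10 genes and transcript shares in 23 of 29; the cause was not tested. TPM over nuclear protein-coding genes, which by its construction divides by a smaller total, moved the mean of all 10 genes, to between 5.94 TPM for Igf1r and 312 TPM for Igfbp5. No paired analysis was possible because the series has 1 group. Leaving out either library leaves no comparison between libraries. Low counts limit Socs1 (21 counts in replicate 2 and 6 counts in replicate 1) and Igf1-206 (0 alignment-based counts in replicate 2 and 19.5 in replicate 1), among others.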
